A study of Arabidopsis with 12 samples.

Results

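The genes described here encode small signalling peptides of Arabidopsis thaliana whose symbol starts with CLE, RALFL, DVL, IDL, PSK, RGF, GLV, CEP or EPFL followed by a number. Each was measured by 1 probe set, a group of short probes on the array, that the array annotation assigns to that gene alone. The rule found 37 genes among 16548 genes tested, namely 16 CLE, 18 RALFL, 2 IDL genes and 1 DVL gene. The RefSeq gene table holds 86 genes with such symbols, among them 30 CLE, 32 RALFL, 5 IDL and 1 DVL gene, and its 6 PSK, 9 RGF and 3 CEP genes were not analysed here. No member had a second probe set, and no level was used to choose the members.

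RNA of whole seedlings aged 8 days was measured on 12 Affymetrix arrays in 4 groups of 3: the line tori 35-7 after 72 h on water-deficit medium with 2% agar, tori 35-7 on control medium with 0.8% agar, Col-0 on the water-deficit medium, and Col-0 on the control medium. Before the transfer all seedlings had grown for 5 days at 22 °C. Col-0 served as the wild type. The labels do not describe tori 35-7, which is known in the field as a single transgenic line that silences TOR, the kinase that couples nutrient supply to growth, by RNA interference. TOR itself was not analysed here, so the silencing was not checked. In a single line, effects of the transgene's position and of TOR silencing cannot be told apart, and the levels of a whole seedling do not separate fewer cells of a type from less RNA per cell. Levels are log2 values of a probe set, errors of levels are SDs over n = 3 arrays, and differences are log2 differences with the standard error (SE) of one model of all 12 arrays.

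Plants use short peptides, cut from longer precursors and mostly secreted, to signal between neighbouring cells and between organs. CLE peptides bind receptor kinases with leucine-rich repeats and control stem cell pools in the shoot and root tips, the dividing cells of the vasculature and the differentiation of phloem. RALFL peptides, the rapid alkalinization factors, bind receptor kinases of the FERONIA type and act on wall integrity and cell growth, many of them in pollen. IDL peptides are relatives of IDA, which triggers the shedding of floral organs, and the DVL family holds small plant-specific proteins that alter the shape of organs when overproduced.

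The tissue label was set against marker lists. Of 8 leaf and 7 root hair markers, 2 of each were measured. The leaf genes RCA and LHCB1.5 had mean levels of 10.01 and 8.11, which are high, so RNA of the shoot was present. The root hair genes EXPA7 and EXPA18 had 4.32 and 3.14. EXPA18 lay little above the low-level reference described below, which reached 3.04, so the sign of root RNA rested on EXPA7. Of 7 markers of root cap, stele and endodermis, where several CLE genes act, 0 were measured. LHCB1.5, an antenna protein gene of photosystem II, rose under water deficit by 1.52 ± 0.25 in tori 35-7 (limma, adjusted p = 0.00652) and by 1.46 ± 0.25 in Col-0 (limma, adjusted p = 0.00861). In Col-0 the adjusted p was 0.0573 without control replicate 3. RCA, the activase of Rubisco, was lower under water deficit with no overlap in both genotypes, by -0.24 ± 0.12 in tori 35-7 (adjusted p = 0.565) and -0.32 ± 0.12 in Col-0 (adjusted p = 0.248), and did not pass.

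Most of the peptide genes gave little signal. As a reference for low levels, 15 measured genes of pollen, tapetum, egg cell, endosperm and seed, tissues that such seedlings lack, had mean levels between 1.85 and 3.04. Of the 37 peptide genes 26, or 70.3%, had a mean within that range, against 50.9% of all 16548 genes. The upper end of the range was set by the egg cell gene EC1.2, and the other 14 genes lay at or below 2.52, as did 20 of the 37 peptide genes. The members nearest the upper end were IDL3 at 2.99 inside it and CLE16 at 3.04 just above it. Their median level was 2.40, against 2.98 for all genes, and 12 of the 37 lay above the median of all genes. The brightness of different probe sets also depends on their probes, so these levels do not order the genes by transcript number.

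**Figure D1:**
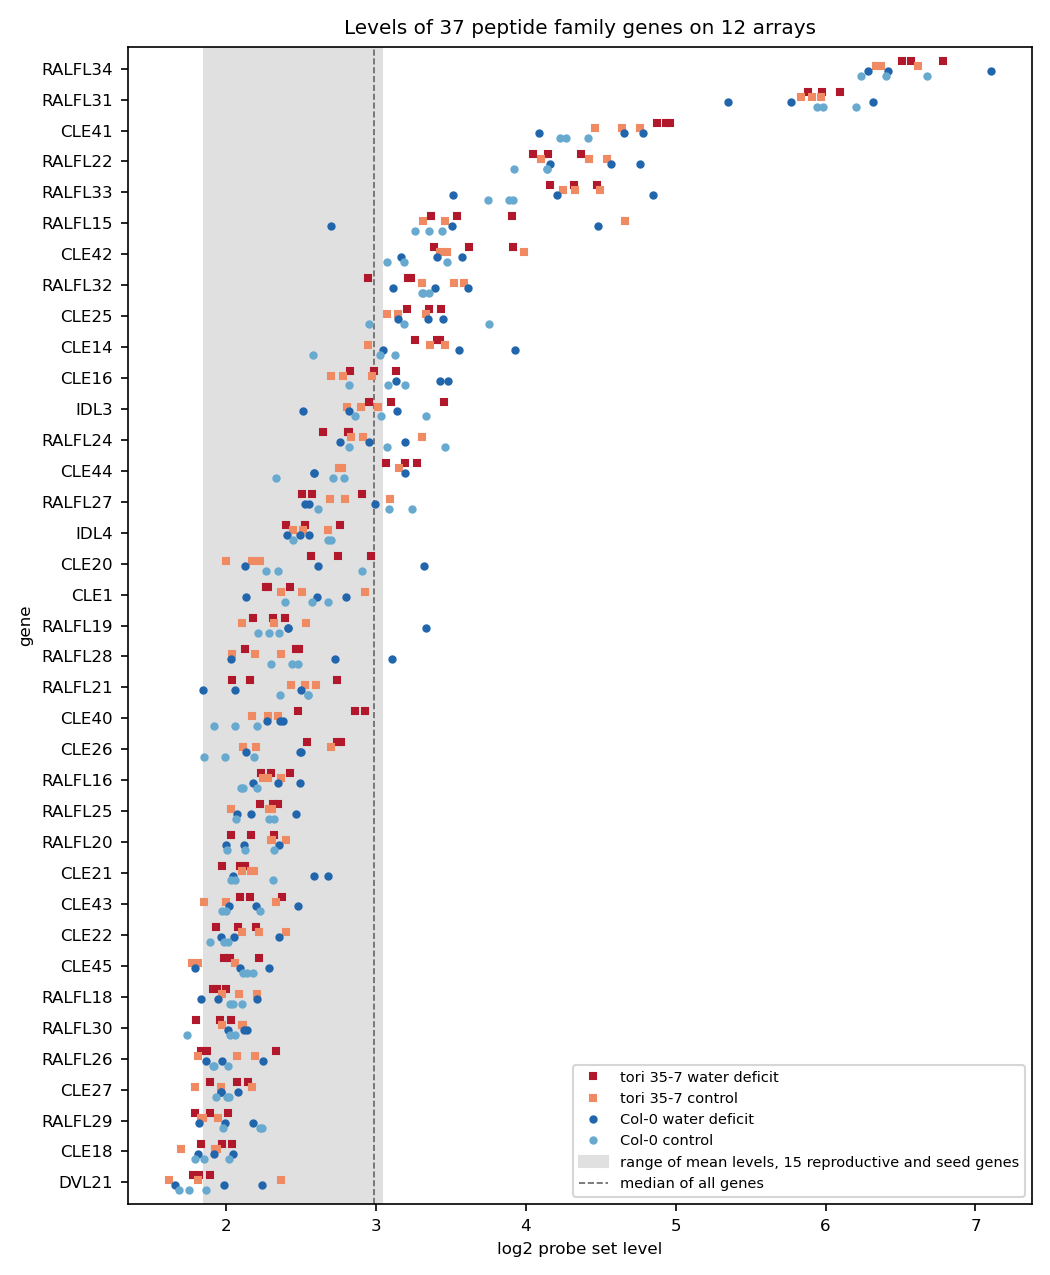
Log2 probe set level (x axis) of each of the 37 genes (y axis, sorted by mean) on the 12 arrays, coloured by group. The grey band, 1.85 to 3.04, is the range of mean levels of 15 reproductive and seed genes, the dashed line the median of all genes at 2.98, and 26 of the 37 genes have their mean inside the band.

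A pair of arrays stood apart and bear on such low genes. Col-0 water-deficit replicate 1 and tori 35-7 control replicate 1 had the narrowest spread of values, with interquartile ranges of 2.57 and 2.68, against 2.91 to 3.08 on the other 10 arrays. On Col-0 water-deficit replicate 1 the 26 low peptide genes had a median of 2.47, against 2.11 to 2.31 on the other 11 arrays. The 15 reproductive and seed genes had a median of 2.39 on it and of 2.04 to 2.28 elsewhere. EC1.2 had its highest values on both arrays, 3.72 on Col-0 water-deficit replicate 1 and 4.35 on tori 35-7 control replicate 1. RALFL15, a secreted peptide gene, was highest on exactly these arrays too, with 4.48, 2.70 and 3.51 in the Col-0 water-deficit arrays and 4.66, 3.46 and 3.32 in the tori 35-7 control arrays in the order of the replicate numbers. Values without one or both arrays are given below for many, not all, named values that moved by over 1.5 times or changed their call. The part of the narrow spread in those results was not tested.

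**Figure D2:**
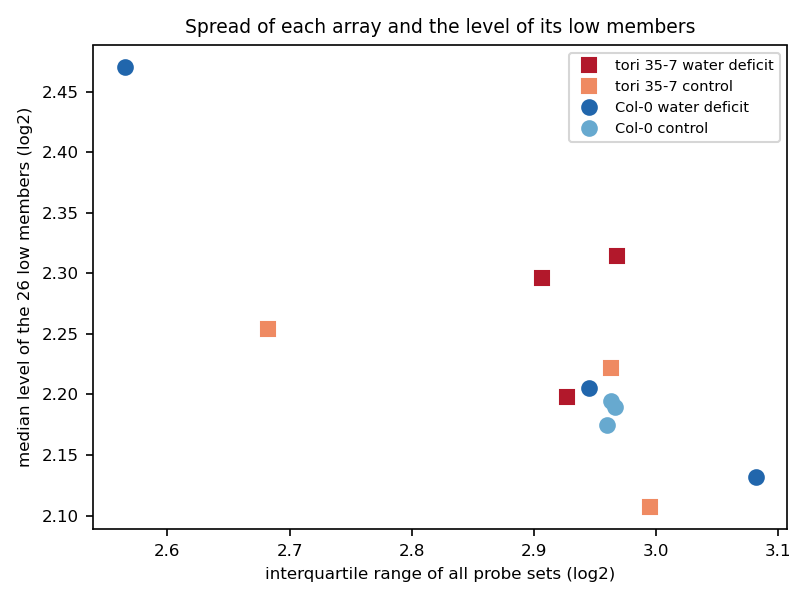
Interquartile range of all probe sets (x axis, log2) against the median level of the 26 low peptide genes (y axis, log2), 1 point per array, coloured by group. The Col-0 water-deficit array at 2.57 on the x axis has the highest median, 2.47.

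Among the RALFL genes, RALFL34 and RALFL31 had the brightest probe sets of all 37. RALFL34, whose peptide acts through the receptor kinase THE1 in the formation of lateral roots, had 6.57, 6.51 and 6.79 in tori 35-7 under water deficit, 6.37, 6.62 and 6.34 in tori 35-7 on control medium, 6.28, 7.10 and 6.42 in Col-0 under water deficit and 6.68, 6.41 and 6.23 in Col-0 on control medium. The groups overlapped in all 4 pairings, and its mean stood at percentile 90.8 of all genes. RALFL31 averaged 5.99 ± 0.11 in tori 35-7 under water deficit and 5.90 ± 0.07 in tori 35-7 on control medium, against 5.81 ± 0.48 in Col-0 under water deficit and 6.04 ± 0.14 in Col-0 on control medium. It stood at percentile 85.8, and its groups overlapped too.

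RALFL22 and RALFL33 encode peptides known to bind FERONIA. RALFL22 had 4.37, 4.15 and 4.05 in tori 35-7 under water deficit and 4.54, 4.42 and 4.10 in tori 35-7 on control medium, against 4.57, 4.76 and 4.16 in Col-0 under water deficit and 3.92, 4.14 and 4.14 in Col-0 on control medium. In Col-0 the water-deficit arrays lay above the control arrays without overlap, and in tori 35-7 the media overlapped. RALFL33 had 4.47, 4.32 and 4.16 in tori 35-7 under water deficit and 4.50, 4.33 and 4.25 in tori 35-7 on control medium, against 4.20, 4.84 and 3.51 in Col-0 under water deficit and 3.92, 3.89 and 3.75 in Col-0 on control medium. Its Col-0 water-deficit arrays spread widely, on both sides of the Col-0 control arrays.

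RALFL32 had 3.21, 3.23 and 2.95 in tori 35-7 under water deficit, below all of its tori 35-7 control arrays (3.59, 3.31 and 3.52), while Col-0 gave 3.61, 3.40 and 3.11 under water deficit and 3.35, 3.31 and 3.31 on control medium, with overlap. The remaining RALFL genes apart from RALFL15, which are 12 of 18, all lay in the low range. They include RALFL19, which with a close relative keeps the pollen tube wall intact through ANX and BUPS receptors, at a mean of 2.40, and RALFL16, known from pollen tubes as well, at 2.27. RALFL24 at 2.97 and RALFL27 at 2.80 were the highest of these 12, and RALFL29 at 1.98 was the lowest. RALFL25 and RALFL26, which are direct neighbours in the RefSeq gene table, had means of 2.24 and 2.00.

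Of the CLE genes, CLE41 had the brightest probe set. CLE41 and CLE44 encode the same peptide, TDIF, which keeps the procambium dividing and holds back xylem through the receptor PXY. CLE41 had 4.94, 4.88 and 4.96 in tori 35-7 under water deficit and 4.46, 4.64 and 4.76 in tori 35-7 on control medium, against 4.08, 4.78 and 4.65 in Col-0 under water deficit and 4.27, 4.23 and 4.41 in Col-0 on control medium. The tori 35-7 water-deficit arrays were above the other 9, and the tori 35-7 control arrays were above the Col-0 control arrays. CLE44 had 3.28, 3.07 and 3.19 in tori 35-7 under water deficit and 2.76, 2.77 and 3.15 in tori 35-7 on control medium, against 2.59, 3.19 and 2.59 in Col-0 under water deficit and 2.71, 2.33 and 2.78 in Col-0 on control medium, with overlap in each of the 4 pairings. Its mean was 3.18 ± 0.10 in tori 35-7 and 2.79 ± 0.35 in Col-0 under water deficit, and 2.89 ± 0.22 in tori 35-7 and 2.61 ± 0.24 in Col-0 on control medium, which is the order of the groups of CLE41. CLE42, a close relative of both, averaged 3.64 ± 0.27 in tori 35-7 under water deficit and 3.63 ± 0.31 in tori 35-7 on control medium, against 3.38 ± 0.20 in Col-0 under water deficit and 3.24 ± 0.20 in Col-0 on control medium.

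CLE25 is known to move from roots to leaves during dehydration and to promote abscisic acid synthesis there. Its levels were 3.43, 3.36 and 3.21 in tori 35-7 under water deficit and 3.33, 3.14 and 3.07 in tori 35-7 on control medium, against 3.34, 3.15 and 3.45 in Col-0 under water deficit and 2.95, 3.19 and 3.76 in Col-0 on control medium. The media overlapped in both genotypes. The difference between the media was 0.15 ± 0.18 in tori 35-7 (95% interval -0.24 to 0.53) and 0.01 ± 0.18 in Col-0 (95% interval -0.37 to 0.40), so that neither interval reached 2-fold in either direction.

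CLE14, a gene known from the arrest of the root meristem under phosphate shortage, had 3.41, 3.43 and 3.26 in tori 35-7 under water deficit and 3.46, 3.36 and 2.95 in tori 35-7 on control medium, against 3.04, 3.56 and 3.93 in Col-0 under water deficit and 2.58, 3.12 and 3.03 in Col-0 on control medium. The Col-0 groups overlapped through the water-deficit array with the narrow spread. CLE40, whose peptide controls the stem cells of the root tip through the receptor ACR4, had 2.48, 2.86 and 2.92 in tori 35-7 under water deficit and 2.17, 2.28 and 2.35 in tori 35-7 on control medium, against 2.38, 2.36 and 2.27 in Col-0 under water deficit and 2.06, 1.92 and 2.20 in Col-0 on control medium. Here the tori 35-7 water-deficit arrays were above the other 9, although all values lay in the low range. CLE20, a peptide that shortens roots when supplied, had 2.96, 2.74 and 2.56 in tori 35-7 under water deficit, all above 2.23, 2.00 and 2.17 in tori 35-7 on control medium. In Col-0 it had 2.12, 3.32 and 2.62 under water deficit and 2.35, 2.90 and 2.26 on control medium, with overlap.

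CLE26, which acts on root phloem, had 2.74, 2.77 and 2.54 in tori 35-7 under water deficit and 2.70, 2.11 and 2.20 in tori 35-7 on control medium, against 2.50, 2.13 and 2.49 in Col-0 under water deficit and 2.19, 1.85 and 1.99 in Col-0 on control medium. Its tori 35-7 water-deficit arrays were all above the Col-0 water-deficit arrays. CLE21 had 2.13, 2.09 and 1.97 in tori 35-7 and 2.59, 2.68 and 2.05 in Col-0 under water deficit, and 2.16, 2.10 and 2.19 in tori 35-7 and 2.03, 2.31 and 2.06 in Col-0 on control medium, so that the higher Col-0 values came from 2 arrays. CLE16 averaged 2.98 ± 0.15 in tori 35-7 under water deficit and 2.82 ± 0.14 in tori 35-7 on control medium, against 3.35 ± 0.19 in Col-0 under water deficit and 3.03 ± 0.19 in Col-0 on control medium. The other CLE genes, namely CLE1, CLE18, CLE22, CLE27, CLE43 and CLE45, had means between 1.90 and 2.50. CLE1, which is known to respond to nitrogen supply, was the highest of them, and CLE45, which acts on root phloem through BAM3, stood at 2.04. The means of CLE20, CLE21, CLE26, CLE40 and CLE44 lay in the low range as well, at 2.52, 2.20, 2.35, 2.35 and 2.87.

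Of the other families, IDL3 averaged 3.17 ± 0.26 in tori 35-7 under water deficit and 2.91 ± 0.11 in tori 35-7 on control medium, against 2.82 ± 0.31 in Col-0 under water deficit and 3.08 ± 0.24 in Col-0 on control medium. Group means of IDL4 lay between 2.48 and 2.61. DVL21 was the dimmest of the 37 with a mean of 1.87, at percentile 1.11 of all genes.

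**Figure D3:**
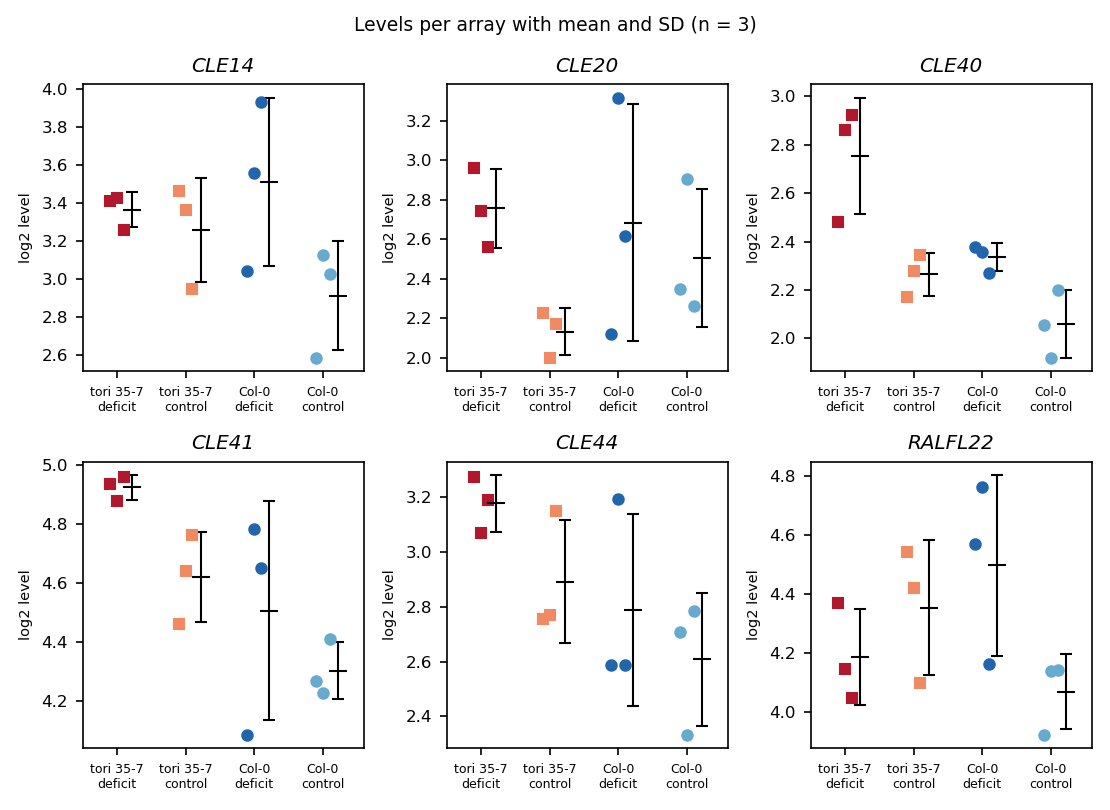
Log2 levels (y axis) of 6 of the genes on each array (coloured points) by group (x axis), with the mean and SD of the 3 arrays in black beside them. CLE40 and CLE41 are higher on the tori 35-7 water-deficit arrays than on the other 9, and the y axes differ between the panels and do not start at 0.

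The response to water deficit in tori 35-7 was the first comparison. None of the 37 genes passed limma's test with Benjamini-Hochberg adjustment over all genes at adjusted p 0.05, where 1.16% of all genes did, and 0.237% of those with a mean within the low range. At an unadjusted p under 0.05 there were 3 of 37, or 8.11%, against 9.55% of all genes and 4.48% of those in the low range. These were CLE40, higher by 0.49 ± 0.14 (adjusted p = 0.135), CLE20, higher by 0.62 ± 0.25 (adjusted p = 0.389), and RALFL32 with -0.34 ± 0.15 (adjusted p = 0.458). Next by unadjusted p were CLE26 with 0.35 ± 0.17 and CLE41 with 0.30 ± 0.17. The value of CLE26 was 0.53 without tori 35-7 control replicate 1 (adjusted p = 0.232). Groups did not overlap for 3 genes with higher levels under water deficit, CLE20, CLE40 and CLE41, where 11.1% of all genes were of this kind, and for 2 with lower levels, RALFL24 and RALFL32, against 7.77%.

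In Col-0, 0 of the 37 genes passed the same limma test, where 1.23% of all genes did, and 0.190% of those in the low range. At an unadjusted p under 0.05 there were 2, or 5.41%, against 12.9% of all genes and 5.63% of those in the low range. These were CLE14, higher by 0.60 ± 0.21 or 1.51-fold (adjusted p = 0.216), and RALFL22, higher by 0.43 ± 0.17 (adjusted p = 0.284). The call of CLE14 turned on Col-0 water-deficit replicate 1: without that array its difference was 0.83 with an adjusted p = 0.039 in limma, and without both arrays of narrow spread it was 0.83 with an adjusted p = 0.0266. CLE26, CLE16 and RALFL19 followed with 0.36 ± 0.17, 0.32 ± 0.15 and 0.44 ± 0.21. That of RALFL19 was 0.13 without Col-0 water-deficit replicate 1. Other single arrays mattered as well, since CLE14 had 0.39 without Col-0 water-deficit replicate 3 and CLE16 had 0.21 without Col-0 control replicate 1. ATA27, a gene of the reproductive and seed reference, also passed in Col-0 without Col-0 water-deficit replicate 2. Its difference was then 0.76 (limma, adjusted p = 0.03), against 0.50 with all arrays (limma, adjusted p = 0.272). Between the genotypes under water deficit ATA27 had -0.72 without the same array (limma, adjusted p = 0.043). The groups did not overlap for CLE40, RALFL19 and RALFL22, all higher under water deficit, where 7.26% of all genes were, and for 0 genes with lower levels, against 8.45%.

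By family, the differences were counted without a test. Of the 16 CLE genes 13 were higher under water deficit in tori 35-7, with a median difference of 0.15, and 14 in Col-0, with a median of 0.17. Without Col-0 water-deficit replicate 1 the Col-0 count was 11 and the median 0.21, while without both arrays of narrow spread the count in tori 35-7 was again 13 and the median 0.20. Of the 18 RALFL genes 6 were higher in tori 35-7, with a median of -0.09, and 12 in Col-0, with a median of 0.07. Those counts moved to 10 in tori 35-7 without both arrays and to 7 in Col-0 without its replicate 1. Over all 37 genes 21 were higher in tori 35-7 (median 0.02) and 27 in Col-0 (median 0.15), and the Col-0 count was 19 (median 0.04) without its replicate 1. Of all 16548 genes 51.6% were higher in tori 35-7 and 52.7% in Col-0, with medians of 0.01 in both. Among all genes within the low range, where 26 of the 37 lay, 46.2% were higher in tori 35-7 and 64.0% in Col-0. Without Col-0 water-deficit replicate 1 the Col-0 shares were 47.9% of all genes and 44.5% of those in the low range. Without both arrays of narrow spread the tori 35-7 shares were 53.2% and 58.3%. Of the 26 members in the low range 14 were higher in tori 35-7 and 17 in Col-0. Of the 11 members above it 7 and 10 were higher, where 57.1% and 40.9% of all genes above it were. Without Col-0 water-deficit replicate 1 the Col-0 count above it was 7 of 11, against 51.4%. Without both arrays the tori 35-7 count above it was 9 of 11, against 48%.

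The precision sets what these counts can show. For a gene with the median SE of the 37, which was 0.17, a difference of 0.75 in tori 35-7 and of 0.74 in Col-0 would have been needed to pass. The 95% intervals of the 37 differences spanned -1.02 to 1.15 in tori 35-7 and -0.76 to 1.05 in Col-0, and 2 of the 37 reached 2-fold in each genotype. Changes of 2-fold were thus outside the interval for the other 35, on a scale where a change near background is understated.

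**Figure D4:**
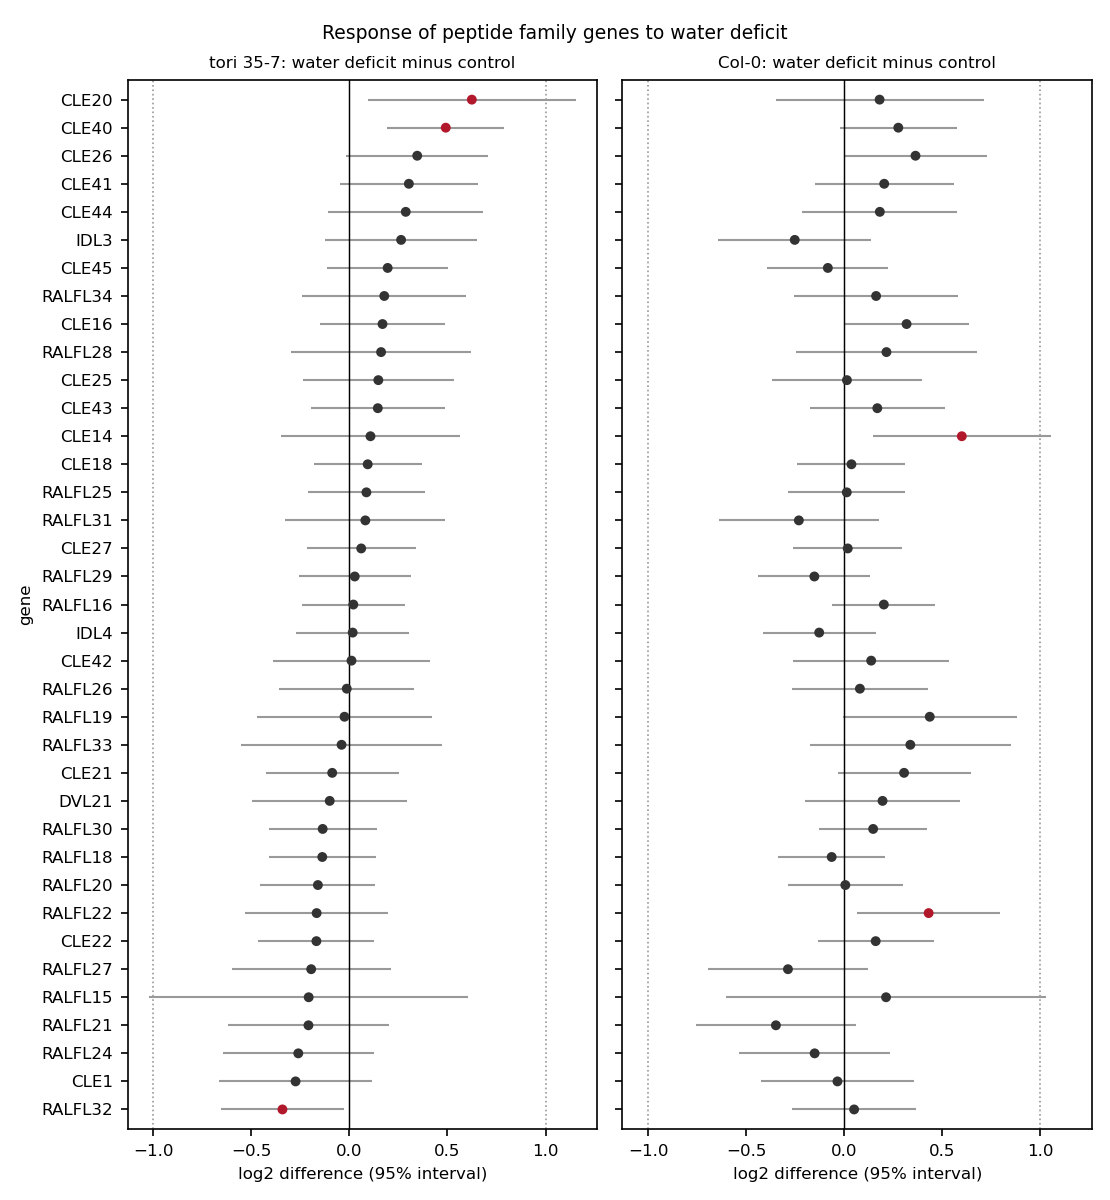
Log2 difference between water deficit and control medium (x axis) with its 95% interval for each of the 37 genes (y axis), in tori 35-7 on the left and Col-0 on the right. Red points have an unadjusted p under 0.05, which are 3 and 2 genes, dotted lines mark 2-fold, and no gene passed after adjustment.

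Whether the response differed between the genotypes was tested as the interaction, the response of tori 35-7 minus that of Col-0. None of the 37 genes passed in limma, against 0.00604% of all genes, which is 1 gene. Of the 37, 1 had an unadjusted p under 0.05, against 6.08% of all genes and 3.67% of those in the low range. It was RALFL22, with an interaction of -0.60 ± 0.24 (adjusted p = 0.807), whose responses were -0.17 ± 0.17 in tori 35-7 and 0.43 ± 0.17 in Col-0. IDL3 had 0.52 ± 0.26, from 0.26 ± 0.18 in tori 35-7 and -0.25 ± 0.18 in Col-0. RALFL32, CLE21 and CLE22 followed with -0.39 ± 0.21, -0.39 ± 0.22 and -0.33 ± 0.20. The value of RALFL32 was -0.21 without both arrays of narrow spread, and that of CLE22 was -0.21 without Col-0 water-deficit replicate 3. Intervals of the interaction reached 2-fold for 7 of the 37 genes, and at the median SE a value of 1.79 would have been needed to pass. The responses of both genotypes, which share no arrays, had the same sign for 21 of the 37 genes, or 56.8%, against 55.1% of all genes. Across the 37 genes, which are not independent replicates and share the arrays within each genotype, Pearson's r of the responses was 0.239, against 0.36 across all genes.

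The genotypes were then compared under water deficit. None of the 37 genes passed in limma, where 0.822% of all genes did. At an unadjusted p under 0.05 there were 4, or 10.8%, against 12.8% of all genes and 6.08% of those in the low range. All 4 were CLE genes. CLE40 was higher in tori 35-7 by 0.42 ± 0.14 (adjusted p = 0.193), and CLE41 by 0.42 ± 0.17 (adjusted p = 0.288). CLE16 and CLE21 had -0.36 ± 0.15 and -0.37 ± 0.16, with adjusted p = 0.312 and 0.333. The fifth by unadjusted p was CLE44 with 0.39 ± 0.18. Without Col-0 water-deficit replicate 1 the value of CLE41 was 0.21 and that of CLE40 was 0.44. CLE44 had 0.59 without Col-0 water-deficit replicate 2, and CLE21 had -0.57 without Col-0 water-deficit replicate 3. CLE26, CLE40 and CLE41 were higher in tori 35-7 with no overlap, where 8.61% of all genes were, and RALFL19 was lower with no overlap, against 8.05%. The 95% intervals of all 37 differences lay between -0.87 and 0.86, so that none reached 2-fold.

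On control medium 0 of the 37 genes passed in limma, where 0.568% of all genes did. At an unadjusted p under 0.05 there were 0, against 9.97% of all genes and 4.96% of those in the low range. The smallest unadjusted p was that of RALFL33, higher in tori 35-7 by 0.51 ± 0.24 (adjusted p = 0.507). CLE42 with 0.39 ± 0.19, RALFL29 with -0.28 ± 0.13, CLE22 with 0.28 ± 0.14 and CLE41 with 0.32 ± 0.17 came next. That of CLE42 was 0.21 without tori 35-7 control replicate 1. Groups did not overlap for CLE22, CLE41, RALFL16 and RALFL33, higher in tori 35-7, against 7.86% of all genes, and for CLE20, CLE45 and RALFL29, lower in tori 35-7, against 11.4%. Intervals spanned -0.90 to 1.28, and 2 of 37 reached 2-fold. CLE41 was thus higher in tori 35-7 with no overlap on both media, without passing on either. Over all 37 genes 19 were higher in tori 35-7 under water deficit (median 0.02) and 22 on control medium (median 0.04), while of all 16548 genes 47.5% and 48.5% were higher. Among all genes within the low range the shares were 39.5% and 56.5%. Without Col-0 water-deficit replicate 1 the count under water deficit was 23 and the median 0.07. The shares without that array were 52% of all genes and 57.1% of those in the low range. Over all fits that left out 1 array the median of the 37 under water deficit ranged from -0.06 to 0.07.

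**Figure D5:**
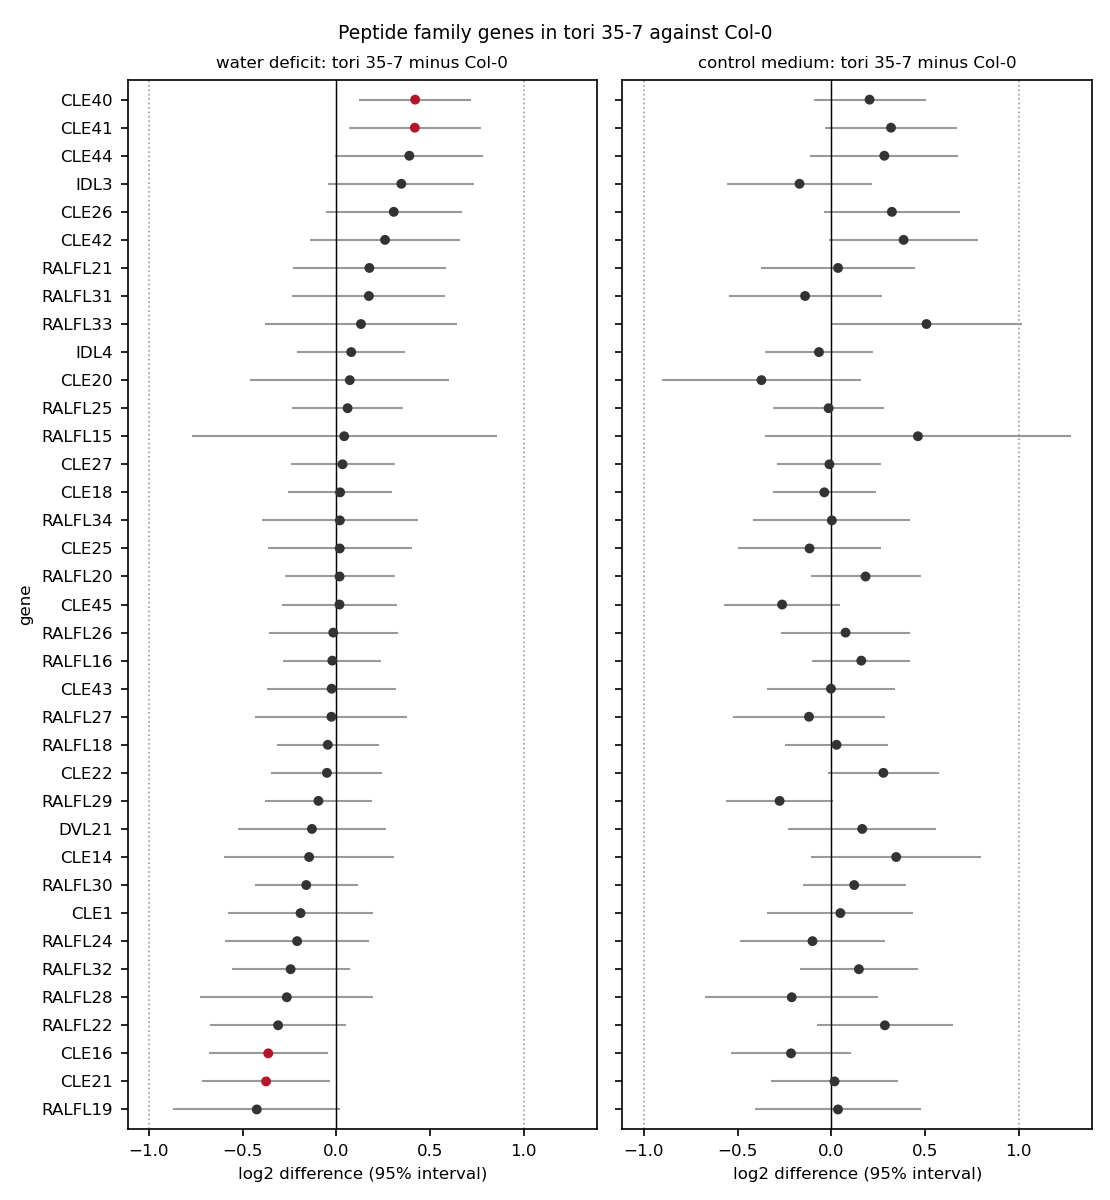
Log2 difference of tori 35-7 minus Col-0 (x axis) with its 95% interval for each of the 37 genes (y axis), under water deficit on the left and on control medium on the right. Red points, 4 under water deficit and 0 on control medium, have an unadjusted p under 0.05, and dotted lines mark 2-fold.

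Genes that act with these peptides were taken from lists chosen with earlier results of these data known. Their counts beside the shares of all genes are thus descriptive. Of 46 receptors, co-receptors and the enzyme that sulfates peptide tyrosines, 15 were measured and 0 passed in limma in any of the 5 comparisons, with 0, 2, 1, 2 and 1 at an unadjusted p under 0.05 for water deficit in tori 35-7, water deficit in Col-0, the interaction, and the genotypes under water deficit and on control medium. In this order 9.55%, 12.9%, 6.08%, 12.8% and 9.97% of all genes were at that level. FER, which encodes FERONIA, had the highest level of them, with 7.68, 7.68 and 7.71 in tori 35-7 and 6.59, 7.56 and 7.26 in Col-0 under water deficit. This is a difference of 0.56 ± 0.19 (adjusted p = 0.2) in which the Col-0 array with the narrow spread was lowest. The difference was 0.28 without that array (adjusted p = 0.33), and 0.77 without Col-0 water-deficit replicate 2, where it passed (limma, adjusted p = 0.0471). THE1, the receptor of the RALFL34 peptide, had 0.36 ± 0.18 in the same comparison (adjusted p = 0.421), and 0.59 without both arrays of narrow spread, where it passed (limma, adjusted p = 0.027). ACR4, the receptor of CLE40, had responses of 0.16 ± 0.17 in tori 35-7, with 0.01 to 0.34 over the fits that left out 1 array, and -0.39 ± 0.17 in Col-0, and an interaction of 0.55 ± 0.24 (adjusted p = 0.807). PXL2, a relative of the TDIF receptor, had 2.91, 3.04 and 2.81 in tori 35-7 and 3.51, 3.33 and 3.41 in Col-0 on control medium without overlap, a difference of -0.50 ± 0.14 (adjusted p = 0.151). ANX1, a receptor of pollen tubes, had a mean of 2.05, within the range of the reproductive genes. The mean of ACR4, 2.60, lay within that range too.

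Of 18 proteases that cut the precursors and factors downstream of peptides, 9 were measured and 1 passed in 1 comparison, against 1.16% of all genes there. At an unadjusted p under 0.05 there were 2, 4, 0, 2 and 1 in the same order of comparisons, beside the shares of all genes given for the receptors. FMA, a regulator of guard cell fate in the stomatal lineage that EPF peptides control, rose under water deficit in tori 35-7 by 0.85 ± 0.18 (adjusted p = 0.0353), with 5.59, 5.57 and 5.69 on water-deficit medium and 4.48, 4.77 and 5.06 on control medium. The call was lost in 8 of the 12 fits that left out 1 array, where the adjusted p ranged from 0.0068 to 0.17 and the difference from 0.70 to 0.99. In Col-0 the difference of FMA was 0.47 ± 0.18 (adjusted p = 0.269), which was 0.66 without both arrays of narrow spread and then passed (limma, adjusted p = 0.0238), and the interaction was 0.38 ± 0.26 (adjusted p = 0.84). On control medium FMA had -0.78 ± 0.18 between the genotypes (adjusted p = 0.077), which passed without Col-0 water-deficit replicate 1 (limma, adjusted p = 0.0168). That array is not in this comparison, so the difference stayed at -0.78. Without tori 35-7 control replicate 1, which is in it, the difference was -0.64 (limma, adjusted p = 0.289). Without both arrays of narrow spread it did not pass (limma, adjusted p = 0.0508). CEPD1, a mobile glutaredoxin of the CEP pathway, had 0.78 ± 0.26 in tori 35-7 (adjusted p = 0.247) and 0.96 ± 0.26 in Col-0 (adjusted p = 0.0937), with no overlap in either and an interaction of -0.18 ± 0.37. Both passed in limma without Col-0 water-deficit replicate 1, with 0.78 in tori 35-7 (adjusted p = 0.0494) and 1.28 in Col-0 (adjusted p = 0.00585). The tori 35-7 value was 0.52 without tori 35-7 control replicate 1 (adjusted p = 0.647). MUTE, which acts before FMA, had an interaction of -0.46 ± 0.22 and a difference of -0.47 ± 0.16 between the genotypes under water deficit (adjusted p = 0.829 and 0.196). Its interaction was -0.27 without both arrays of narrow spread, and its mean level of 2.32 lay in the low range. Of 14 peptide genes of these and related families under other symbols 8 were measured, 3 of them the members RALFL22, RALFL33 and RALFL34 over again, and 0 passed, with 1, 2, 2, 2 and 0 at an unadjusted p under 0.05 in that order, beside the same shares of all genes. CIF2, which guides the Casparian strip of the root endodermis, came closest, with 5.29, 5.05 and 4.99 in tori 35-7 under water deficit and 4.28, 4.39 and 4.23 on control medium, against 3.78, 4.50 and 4.64 in Col-0 under water deficit. That is 0.81 ± 0.19 for the medium in tori 35-7 (adjusted p = 0.0599) and 0.81 ± 0.19 for the genotype under water deficit (adjusted p = 0.0651). Without Col-0 water-deficit replicate 1 the medium's difference passed in limma (adjusted p = 0.00345), while the genotype's was 0.55 (adjusted p = 0.0759). That array is not in the medium's comparison, where the difference stayed at 0.81. Without tori 35-7 control replicate 1, which is in it, the medium's difference was 0.80 (limma, adjusted p = 0.16). The medium's and the genotype's differences both passed without Col-0 water-deficit replicate 3 (limma, adjusted p = 0.0422 and 0.0304). EPFL9, the peptide that promotes stomata, had 0.49 ± 0.15 in Col-0 (adjusted p = 0.144).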

How the data were processed

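Total RNA of whole seedlings was labelled with biotin and measured on 12 Affymetrix arrays. The deposited values were taken as log2 levels, 1 per probe set and array, with Transcriptome Analysis Console 4.0.1 named in the submitters' processing notes. How background and normalization were handled is not stated there, per the labels. Of 38408 probe sets 16722 had 1 annotated gene. The brightest probe set stood for each gene, which left 16548 genes. Of the 37 members, 25 were matched to the RefSeq table of TAIR10.1 by gene ID and 12 by symbol.

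limma 3.58.1 in R 4.3.3 estimated 1 mean for every group over the 12 arrays together, with two-sided p-values and Benjamini-Hochberg adjustment over all genes at 0.05. The steps were tested on simulated data. The labels do not say whether replicates were separate cultures, so p-values cover the spread between these samples, which may be technical. Every array differed from all others in its values.

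The members and lists were chosen with earlier results of these data known. Named with values were members past the threshold (there were 0), the 5 with the smallest p per comparison, the 5 brightest, the 4 with the largest range of group means and, per pathway list and comparison, the gene with the smallest p, with other members added by role. No sequences were used here.

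Same-numbered arrays did not deviate together, with correlations of -0.06 to 0.07 between the deviations from group means. The alternatives were quantile normalization, median centring, a filter on dim genes, trend and robust priors, array weights, the compared arrays alone, a replicate block, the mean of probe sets, all probe sets, a 2-fold minimum, and fits without 1 or 2 arrays. The family counts without arrays of narrow spread, and the left-out fits of list genes, were added after seeing the data.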

Additional observations from a re-analysis of the deposited data

How the results depend on the processing

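The count of peptide genes past the threshold was 0 in every alternative for water deficit in tori 35-7, for the interaction and for the genotypes on both media. In Col-0 it was 1 with array weights and 1 without the 2 arrays of narrowest spread, it ranged from 0 to 1 when single arrays were left out, and it was 0 in the other alternatives. The gene was CLE14 each time, and leaving out Col-0 water-deficit replicate 1 gave its only call among the single arrays. Its difference ranged from 0.39 to 0.83 over 23 settings. With the replicate block, where the numbers do not pair the arrays, the count was 0 in all 5 comparisons. None of the 25 differences of the members with the smallest p changed sign in any setting. They were chosen by p on these same arrays, which made a change of sign unlikely in advance. The median over all 37 ranged from -0.02 to 0.08 for water deficit in tori 35-7 and from -0.10 to 0.06 for the interaction. For the genotypes under water deficit it ranged from -0.06 to 0.07. It stayed above 0 for water deficit in Col-0 and for the genotypes on control medium. With 3 arrays a group the precision is limited. The median SE of a response was 0.159 for the members in the low range and 0.186 for those above it, so the low genes had no larger errors, but most of the 37 lay where genes not expected in seedlings lie, and a change there is understated.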
